A study of Mus musculus with 7 samples.

Results

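The 4 arrays labelled wild type were described on their own, out of 7 arrays in the series, by the order of signal across genes and by the spread between the arrays. Each array holds RNA of CD11c+ cells that were taken by magnetic sorting (MACS) from the spleen of mice killed at day 7 after allo-HSCT, an allogeneic hematopoietic stem cell transplant, in which donor and recipient differ genetically. The labels give the genotype as WT (C57BL/6J) on a C57BL/6J background, and an age of 9 weeks in the sample protocol against 8 weeks in the description of the experiment. Whether that genotype is the recipient's, the donor's or that of both is not stated in the labels, which also leave out the donor strain, the conditioning of the recipients and whether each array is a separate animal. All 4 arrays share the transplant, so no untransplanted spleen stands beside them, and the remaining 3 arrays of the series, labelled Atg16L1 hypomorphic, were not compared. There is 1 group and hence no test of a difference: values are means ± SD over the 4 arrays, the SD measures the spread between these samples, and precision is limited to what 4 arrays give.

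CD11c is the integrin alpha chain encoded by Itgax. Dendritic cells carry it at high density and are selected by it, but macrophages, some monocytes, activated cytotoxic lymphocytes and other cells carry it too. Splenic dendritic cells fall into a CD8 lineage specialised in presenting antigen of other cells on class I molecules, a CD11b lineage that presents mainly on class II, and plasmacytoid cells that make type I interferon. After an allogeneic transplant, antigen-presenting cells activate donor T cells while donor stem cells rebuild blood formation, in mice also in the spleen.

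A total of 22625 probe sets remained after leaving out 64 control probe sets, whose names start with AFFX, and 1 without a value. Each probe set was placed by its percentile, the share of all probe sets with a lower mean log2 value. A percentile is an order of signal, and only roughly one of abundance, since probe sets bind their targets with different strength. The size of that limit could be measured: the 4955 genes with several probe sets had a median range of 1.59 log2 units between their highest and lowest one, or 19.7 percentile points. For that reason the levels of different genes are given side by side as places in this order and are not compared with each other. A gene stands with its probe set of highest mean, which puts the median of all 12393 genes at the percentile 56.3. Of these genes, 0.742% lay in the top 1% and 11.2% in the top 10% of probe sets.

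An empirical background came from 53 measured genes that belong to tissues other than spleen, such as photoreceptor, lens, neuron, heart and sperm genes. Their median was 3.19 and the 95th percentile of their means was 4.79, a level that 43.2% of all probe sets did not reach. Genes over 4.79 are called above background here, as were 61.6% of all genes. The call uses the probe set of highest mean. Other probe sets of a gene can lie under the level, also where this is not said. The 3 of the 53 above it were Mbp (8.27 ± 0.23), a myelin gene with transcripts also in blood cells, Omp (5.12 ± 0.13), a protein of olfactory neurons, and the neuronal factor Neurod2 (4.89 ± 0.19). The defining genes Gfap of astrocytes and Cryaa of the lens were at 3.97 ± 0.17 and 3.57 ± 0.17. Replicate 1 stood slightly apart in this list. It had the highest value in 37 of the 53 genes, as it had for 34.9% of all probe sets, with a median deviation of 0.096 from the mean of the arrays against -0.029 to -0.014 in the others, and a lower quartile over all probe sets of 3.37 against 3.31 to 3.33. Low signals thus lay a little higher on replicate 1. Its mean correlation with the other arrays was 0.993, against 0.994 to 0.995 for them.

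Of the 25 genes with the highest signal, 14 encode ribosomal proteins, from Rps29 (13.54 ± 0.029), Rpl13a (13.48 ± 0.034) and Rpl41 (13.41 ± 0.036) to Rpsa, Rplp2, Rpl37a, Rps28, Rpl38, Rps4x, Rplp0, Rps18, Rps3a1, Rps20 and Rpl7a (13.10 ± 0.012). The 3 at the very top encode proteins of neutrophil granules and cytosol. S100a9 and S100a8, which form the calcium-binding dimer calprotectin, read 14.01, 14.01, 14.13 and 14.02, and 13.79, 13.80, 13.88 and 13.77, in replicates 1 to 4. Ngp, a protein of neutrophil secondary granules, read 13.75, 13.78, 13.89 and 13.77. All 4 arrays held these genes near the top of the scale, which ended at 14.13. Next came the actin-sequestering peptides Tmsb4x (13.77 ± 0.044) and Tmsb10 (13.60 ± 0.10), beta-actin Actb (13.67 ± 0.025), the translationally controlled protein Tpt1 (13.71 ± 0.032) and the elongation factor Eef1a1 (13.50 ± 0.014). The rest were Chil3 (13.32 ± 0.080), a chitinase-like protein of myeloid cells, B2m (13.29 ± 0.044), the light chain of class I molecules, and Fth1 (13.27 ± 0.088), the ferritin heavy chain. The membership of the top was stable. Of the 226 probe sets in the top 1% of an array, 204 were shared by all 4 arrays and 251 were in it on at least 1.

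The upstream sequence of S100a8 is shown because it heads this order together with S100a9. It is the window of 200 bases before the annotated start, from RefSeq (GRCm38.p6, chr3:90668871-90669070, plus strand), with a TATA box match (TATAAA, searched on both strands) in capitals.
S100a8: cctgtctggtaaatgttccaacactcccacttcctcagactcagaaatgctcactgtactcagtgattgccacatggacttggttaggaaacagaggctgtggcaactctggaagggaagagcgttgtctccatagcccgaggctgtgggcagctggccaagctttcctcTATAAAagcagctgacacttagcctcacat
The match begins 30 bases before the start. TATAAA or its reverse complement lies in 9.96% of 32851 such windows. Of 16 neutrophil genes with a window, 2 hold it, S100a8 and Ly6g.

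The labels call these cells splenic dendritic cells (DCs). Markers of dendritic cells were present at middle to high places in the order. Itgax itself, the gene of the sorting marker, was at 8.32, 7.98, 8.33 and 8.33 (percentile 82.2). Flt3, the receptor whose ligand drives dendritic cell development, was at 6.28, 6.66, 6.99 and 6.83 (percentile 63.1), and Zbtb46, a transcription factor of conventional dendritic cells, at 5.32, 5.75, 5.40 and 5.32 (percentile 49.5). All 3 were above background on all 4 arrays, Zbtb46 by less than 1 log2 unit. The other Zbtb46 probe sets were under the background level, with means of 4.15 and 2.69. Among 10 measured genes of the pan dendritic cell list 9 were above background, with a median percentile of 74.6. The regulator Id2 (11.51 ± 0.070, percentile 98.3) had the highest signal, and the myeloid factor Spi1 (8.47 ± 0.13), the maturation marker Cd83 (8.44 ± 0.59) and the cytokine receptor chain Csf2rb (8.22 ± 0.21) came next with Itgax, while Adam23 (4.66 ± 0.19) was not above background. Several of these genes are also used by other blood cells, so the list alone does not separate dendritic cells. In RNA of a mixed sample, fewer cells of a type and less RNA per cell cannot be told apart.

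The CD8 lineage list had a median percentile of 73.5, with 11 of 14 measured genes above background. Its highest genes were Cd24a (12.16 ± 0.19), a glycoprotein that erythroid cells also carry, the lysosomal enzyme Ppt1 (9.46 ± 0.27), and Irf8, the factor that specifies this lineage. Irf8 read 8.97, 9.39, 9.30 and 9.74, lowest on replicate 1 and highest on replicate 4. Cxcr3 (8.97 ± 0.53), a chemokine receptor that activated T cells share, the adhesion molecule Cadm1 (8.84 ± 0.55) and the acid amidase Naaa (8.59 ± 0.32) followed. Batf3, required for the lineage, was at 6.95, 7.47, 7.23 and 7.79, and Tlr3, its receptor for double-stranded RNA, at 5.95, 6.08, 6.77 and 6.71. Xcr1, the chemokine receptor that defines the lineage most narrowly, read 3.73, 4.17, 4.22 and 4.57, under the background level of 4.79 on all 4 arrays. Clec9a, the other narrow marker, was not analysed here.

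In the CD11b lineage list 12 of 14 measured genes were above background, at a median percentile of 64.3. Sirpa, the inhibitory receptor that marks this lineage and also macrophages, was at 10.26 ± 0.49. Notch2, the receptor needed for its splenic form (9.40 ± 0.17), the lymphotoxin gene Ltb (9.23 ± 0.41) and the lectin Clec4a2 (8.73 ± 0.68) followed. Ltb read 9.76, 8.78, 9.25 and 9.11, in the order of the T cell list described further on, and its cell source was not tested. Irf4, the factor of the CD11b lineage, read 5.94, 6.04, 5.79 and 5.86, and Esam, an adhesion molecule of its Notch-dependent subset, read 5.24, 5.51, 5.40 and 5.81. The other Irf4 probe set was under the background level, with a mean of 3.26. The lectins Mgl2 (3.69 ± 0.24) and Cd209a (3.11 ± 0.034) were not above background. Clec10a, a related lectin, read 8.16, 6.68, 8.36 and 6.47, with replicates 1 and 3 more than 1 log2 unit above replicates 2 and 4.

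Plasmacytoid genes had a median percentile of 47.5, with 9 of 11 above background and none in the top 10%. That median is the place of 1 member, Klk1, described last here. The interferon-inducible Bst2 (7.82 ± 0.11) and Irf7 (7.55 ± 0.057), the inhibitory receptor Lair1 (7.72 ± 0.65) and Tcf4 (7.17 ± 0.20), the factor that specifies plasmacytoid cells, led. Their more restricted genes Spib (4.92 ± 0.11), Ccr9 (4.80 ± 0.19) and Pacsin1 (4.66 ± 0.30) lay close to the background level, Pacsin1 below it. The other Ccr9 probe sets were under it, with means of 3.31 and 3.26. Klk1, a kallikrein, read 3.30, 4.28, 6.35 and 7.05, lowest on replicate 1 and highest on replicate 4, the order of the pancreatic genes described further on. Of the migratory mature list, 8 of 11 were above background (median percentile 51.5), with the surface protein Tmem123 (9.44 ± 0.10), the apoptosis inhibitor Birc2 (8.27 ± 0.050) and the cytokine signalling inhibitor Socs2 (8.20 ± 0.25) highest. Ccr7, the receptor for migration to T cell zones, read 4.90 ± 0.36, and Fscn1, the actin bundler of mature dendritic cells, 5.64 ± 0.18. The other Fscn1 probe sets were under the background level, with means of 4.41, 4.29 and 2.81. Ccl22 (3.15 ± 0.12) and Il4i1 (3.16 ± 0.22), both products of mature dendritic cells, were not above background.

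**Figure D1:**
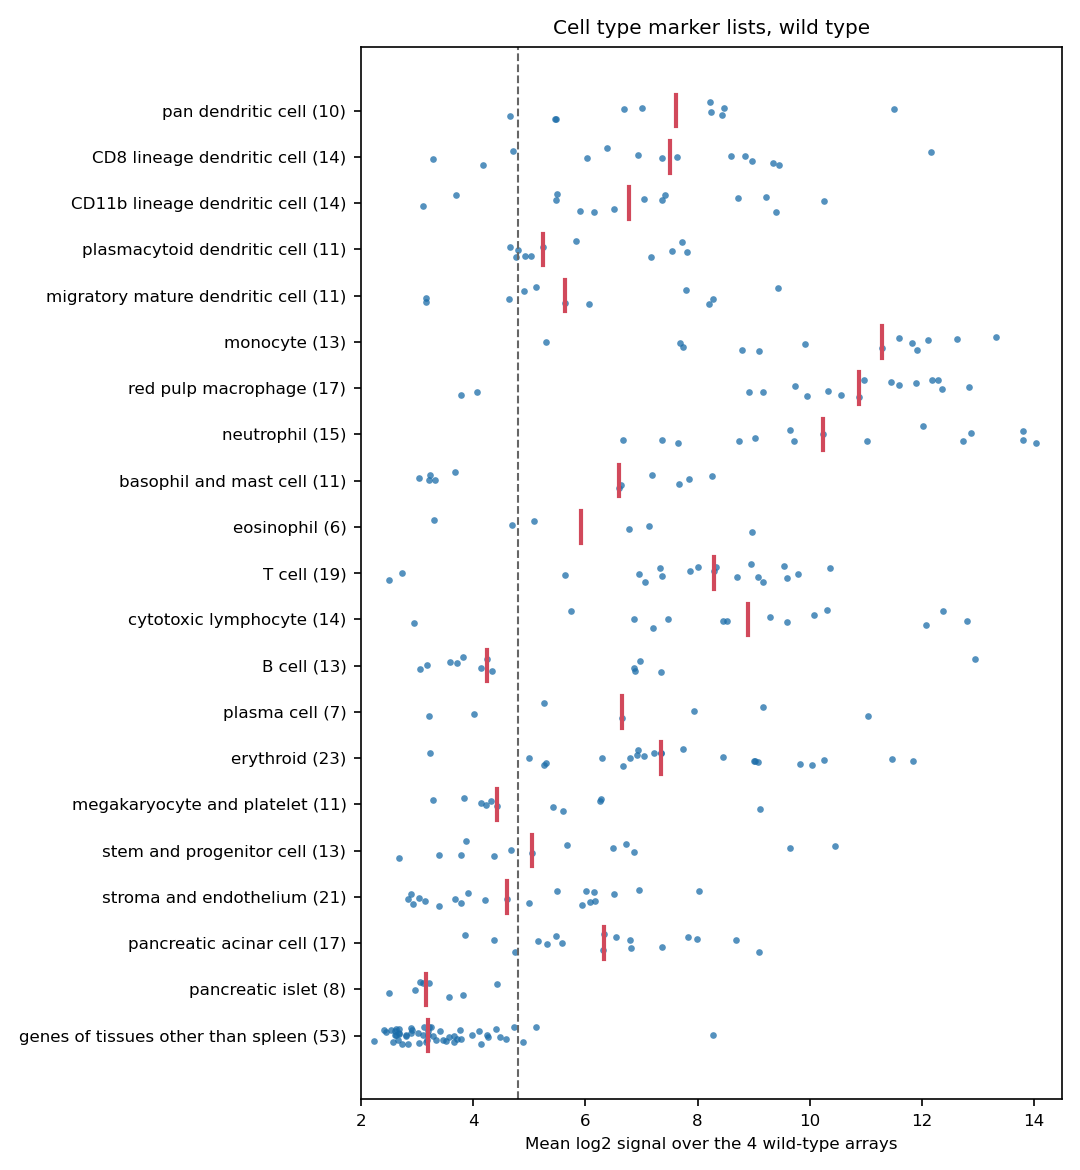
Mean log2 signal over the 4 wild-type arrays (horizontal axis) of each measured gene (points, with a vertical scatter that has no meaning) in the cell type lists, with the number of measured genes in brackets. Red bars are list medians and the dashed line is the background level of 4.79. Monocyte, red pulp macrophage and neutrophil genes had median percentiles of 98.0, 97.3 and 95.5.

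Macrophage and monocyte genes lay high. Of 17 measured genes of red pulp macrophages, the iron-recycling macrophages of the spleen, 15 were above background and 14 in the top 10%, where 11.2% of all genes lay. Vcam1, the adhesion molecule that marks them, read 12.61, 12.88, 12.86 and 13.03, and Spic, the factor that specifies them, 10.43, 11.22, 10.74 and 11.47. The iron exporter Slc40a1 (12.36 ± 0.50), the complement chains C1qa (12.29 ± 0.28), C1qb (11.89 ± 0.33) and C1qc (11.45 ± 0.29), the mannose receptor Mrc1 (12.18 ± 0.22) and the haemoglobin scavenger Cd163 (10.89 ± 0.49) were all in the top 10%. Siglec1 (4.07 ± 0.51), a marker of marginal metallophilic macrophages, and Vsig4 (3.77 ± 0.82) were not above background. Among monocyte genes all 13 were above background, with Csf1r, the receptor for macrophage growth factor, at 12.25, 12.79, 12.42 and 13.06 and Ccr2, the receptor for exit from marrow, at 8.93, 8.42, 8.85 and 8.98. Lyz2 (12.11 ± 0.18), S100a4 (11.92 ± 0.30), Plac8 (11.82 ± 0.16) and Cd14 (11.29 ± 0.69) were in the top 10%, and the defining F13a1, a coagulation factor subunit, read 7.74 ± 0.57.

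All 15 measured neutrophil genes were above background, at a median percentile of 95.5. Secondary granule genes stood at the top, with Camp (12.88 ± 0.16), Lcn2 (12.73 ± 0.11) and Ltf (12.02 ± 0.22) beside Ngp. Genes of primary granules, which are transcribed in early precursors, were also in the top 10% with Prtn3 (10.23 ± 0.19), Ctsg (9.71 ± 0.42) and Mpo (9.65 ± 0.46), and Elane read 9.03 ± 0.31. The receptor Cxcr2, a marker of mature neutrophils, read 6.80, 6.07, 7.27 and 6.55 (percentile 62.8). Ly6g was not analysed here.

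T cell and cytotoxic lymphocyte genes were well represented. Of 19 measured T cell genes 17 were above background (median percentile 82.7), and the CD3 chains Cd3d (10.37 ± 0.42) and Cd3g (9.09 ± 0.39), Thy1 (9.79 ± 0.37) and the CD8 chain Cd8b1 (9.55 ± 0.47) were among the highest. The defining CD3 chain Cd3e read 7.06 ± 0.34. The checkpoint receptor Ctla4 read 10.05, 9.23, 9.91 and 9.15. Cd4, at 5.59, 5.71, 5.70 and 5.55, was above background by less than 1 log2 unit, and Foxp3 (2.72 ± 0.20), the factor of regulatory T cells, was not above it. Cytotoxic genes had a median percentile of 88.1, with 13 of 14 above background. Gzma, a killer cell protease, read 13.08, 12.57, 12.78 and 12.76, and Gzmb 12.33, 12.02, 12.00 and 11.93. The chemokine Ccl5 (12.38 ± 0.28), the NK and T cell receptor chain Klrd1 (10.31 ± 0.47) and Nkg7 (10.07 ± 0.27) were in the top 10%. Prf1, the pore-forming perforin, read 7.48 ± 0.36, and its other probe set was under the background level, with a mean of 4.56. Fasl, the death ligand, read 8.45 ± 0.27, and Ifng 8.23, 8.00, 7.76 and 7.47. Ncr1, an NK cell receptor, was at 2.83, 2.92, 3.03 and 2.97, well under the background level.

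B cell genes were mostly low, with 5 of 13 above background (median percentile 37.7). The defining genes Cd79a (4.23, 4.04, 4.32 and 4.35) and Pax5 (3.81, 3.92, 3.75 and 3.81) were under the background level on all 4 arrays. Cd79b (7.35 ± 0.071), Ms4a1 (6.86 ± 0.14) and Cd22 (6.88 ± 0.35) were above it. The other probe sets of Ms4a1 (mean 4.62) and Cd22 (mean 3.55) were not. Ighm, the heavy chain of IgM, was in contrast in the top 1% with 12.99, 12.47, 12.89 and 13.41, but its 11 probe sets ran from 2.39 to 12.94. Among plasma cell genes, the secretory regulator Xbp1 (11.04 ± 0.16) and Jchain (9.16 ± 0.50) were in the top 10%, whereas Sdc1 (4.01 ± 0.13) and Tnfrsf17 (3.22 ± 0.24) were not above background.

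Erythroid genes were above background in 22 of 23 cases. Klf1, the master regulator of red cell genes, read 9.20, 9.40, 8.75 and 8.93, and Alas2, the first enzyme of haem synthesis in red cells, 7.59, 7.85, 6.93 and 7.00. Replicate 2 was the highest for both. The carbonic anhydrases Car2 (11.85 ± 0.35) and Car1 (11.46 ± 0.39) led, with the anion exchanger Slc4a1 at 9.83 ± 0.45. The gene not above background was Hba-a1 (3.23 ± 0.069), for which the probe set naming it alone was used. The 3 other alpha-globin probe sets, which name Hba-a2 too, were left out.

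Of basophil and mast cell genes 6 of 11 were above background, and of eosinophil genes 4 of 6, where 61.6% of all genes were. Mcpt8, a basophil protease, read 8.11, 8.14, 7.47 and 9.34, and the histamine-forming enzyme Hdc (7.86 ± 0.31) and the carboxypeptidase Cpa3 (7.68 ± 0.42) were above background as well. The defining IgE receptor chain Ms4a2 (3.67 ± 0.32) and the cytokine Il4 (3.32 ± 0.40) were not, while another IgE receptor chain, Fcer1a, was. Prg2, the eosinophil major basic protein, read 8.99, 9.38, 8.34 and 9.16, with the chemokine receptor Ccr3 at 7.13 ± 0.80, eosinophil peroxidase Epx at 6.77 ± 0.55 and the lectin Siglecf at 5.08 ± 0.30. The connective tissue mast cell proteases Mcpt4 (3.23 ± 0.17), Cma1 (3.22 ± 0.093) and Tpsb2 (3.03 ± 0.13) were not above background. Of megakaryocyte genes 5 of 11 were above it, among them Clec1b (9.11 ± 0.71), Pf4 (6.27 ± 0.15) and the integrin chain Itga2b (6.26 ± 0.14), and the defining Gp9 (4.42 ± 0.092) was not. Of 21 stromal and endothelial genes 10 were, led by the sinusoidal scavenger receptor Stab2 (8.03 ± 0.42), Lepr (6.95 ± 1.32) and the matrix protein Sparc (6.51 ± 0.40), while the defining genes Cdh5, Col1a1 and Pdgfrb were not. The stem cell markers Cd34 (3.38 ± 0.19), Meis1 (4.36 ± 0.070) and Hlf (3.79 ± 0.061) were not above background either, although Myb, a factor of proliferating progenitors, read 9.64 ± 0.071, and the repressor Gfi1 6.87 ± 0.22. The part of these other cell types in the levels above was not tested.

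Xist, the RNA that silences an X chromosome in female cells, read 11.67, 11.77, 11.75 and 11.68. The Y-linked genes Uty (2.48 ± 0.11), Kdm5d (2.48 ± 0.14) and Eif2s3y (2.34 ± 0.056) were far under the background level on every array. No Y-linked signal was thus measured in any of the 4 samples with these 3 genes.

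Antigen presentation genes were among the highest of the immune lists. Class II molecules are alpha and beta chain pairs that the invariant chain Cd74 escorts to endosomes, where proteases trim it and H2-DM loads peptide. All 16 measured class II genes were above background and 9 were in the top 10% (median percentile 93.3). H2-Aa, an alpha chain, read 11.88, 12.03, 12.06 and 11.99, and its partner H2-Ab1 9.89, 10.28, 10.20 and 10.18. H2-Eb1 read 10.63, 10.66, 10.76 and 10.68, and Cd74 10.79, 11.01, 11.25 and 11.01. Replicate 1 was the lowest of the 4 arrays for H2-Aa, H2-Ab1, H2-Eb1 and Cd74. It was the lowest for 11 of the 16 genes, against 27.2% of all probe sets. The proteases that process antigen and invariant chain, Ctss (12.80 ± 0.099), Lgmn (11.00 ± 0.29) and Ctsl (10.96 ± 0.16), and the thiol reductase Ifi30 (11.47 ± 0.15) were in the top 10%. H2-DMa read 8.98 ± 0.13, and the H2-DO chain H2-Oa, which restrains H2-DM in B cells and some dendritic cells, 7.54 ± 0.29. Ciita, the activator that all class II genes need, read 5.12, 5.32, 5.32 and 5.66, at the percentile 48.6. Its other probe set was just under the background level, with a mean of 4.76.

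H2-Ea, the alpha chain that pairs with H2-Eb1, read 9.16, 9.08, 9.69 and 9.43. As background, the H-2b haplotype of C57BL/6 mice carries a deletion in the promoter of this gene and does not express it. Of 3 probe sets for H2-Ea, 2 were high on all 4 arrays, with means of 9.34 and 8.72, and the third was under the background level at 2.17. The donor strain, and whether these probe sets also bind other class II transcripts, are not stated in the labels, and the source of the signal was not tested.

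Class II genes share an upstream element, whose Y box is bound by the factor NF-Y and which acts through Ciita. For 3 class II genes at different places in the order, the 200 bases before the annotated start (RefSeq, GRCm38.p6) are printed with the Y box letters CTGATTGG, searched on both strands, in capitals. They lie at chr17:34287824-34288023 on the minus strand (H2-Aa), chr17:34305667-34305866 on the plus strand (H2-Eb1) and chr17:34092179-34092378 on the plus strand (H2-Oa).
H2-Aa: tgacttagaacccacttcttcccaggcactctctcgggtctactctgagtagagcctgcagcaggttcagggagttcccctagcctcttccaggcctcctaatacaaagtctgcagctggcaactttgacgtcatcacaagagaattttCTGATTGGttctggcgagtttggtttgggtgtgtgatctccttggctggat
H2-Eb1: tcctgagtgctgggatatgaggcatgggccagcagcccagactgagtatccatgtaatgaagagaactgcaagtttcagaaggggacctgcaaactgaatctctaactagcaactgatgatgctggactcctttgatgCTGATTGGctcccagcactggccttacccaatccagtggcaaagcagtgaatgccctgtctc
H2-Oa: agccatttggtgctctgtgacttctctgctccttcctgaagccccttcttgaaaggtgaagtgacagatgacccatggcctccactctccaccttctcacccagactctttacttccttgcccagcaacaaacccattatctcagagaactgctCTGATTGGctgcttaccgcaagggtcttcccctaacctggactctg
The matches begin 51, 62 and 46 bases before the start. These 3 were the genes with CTGATTGG or its reverse complement among 14 of the class II list with a window, against 3.54% of all 32851 windows. The shorter core ATTGG, which lies within the Y box letters, was in 9 of the 14 and in 29.3% of all windows. A match describes the letters only.

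Class I genes lay high as well, with 17 of 17 above background and 14 in the top 10% (median percentile 95.9). B2m read 13.26, 13.30, 13.35 and 13.26, H2-K1 11.65, 11.96, 11.89 and 12.06, and H2-D1 11.66, 12.07, 11.94 and 12.08. The 9 probe sets of H2-D1 had means from 2.75 to 11.94. The probe set with a mean of 11.64 read 11.83, 11.46, 11.79 and 11.48, in another order of arrays. The immunoproteasome subunits Psmb8 (10.67 ± 0.10), Psmb9 (10.61 ± 0.096) and Psmb10 (9.75 ± 0.19), the peptide transporter Tap1 (9.21 ± 0.15) and the bridging chaperone Tapbp (10.32 ± 0.095) were in the top 10%, and Tap2 read 8.03 ± 0.39. The list's median SD was 0.124, or 0.075 without replicate 1, against 0.120 over all probe sets.

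Ligands by which dendritic cells instruct T cells lay lower. The costimulation list had 12 of 16 genes above background and a median percentile of 55.4, close to that of all genes (56.3). Cd86, a ligand of CD28 and CTLA-4, read 8.15, 9.02, 8.74 and 9.27, and its relative Cd80 6.44, 6.38, 6.96 and 6.50. Cd274, which encodes PD-L1, read 8.50 ± 0.18, Icam1 8.84 ± 0.37 and Cd48 10.45 ± 0.088. Cd40, through which T cells license dendritic cells, read 4.41, 4.90, 4.52 and 4.70, with a mean under the background level. Tnfsf4 (3.54 ± 0.13) and Cd70 (3.13 ± 0.21) were also under it.

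Cytokine genes had 12 of 18 members above background, where 61.6% of all genes were. Their median percentile was 59.8, close to that of all genes (56.3). Il18 (10.78 ± 0.47), Il1b (9.44, 9.23, 10.06 and 9.16) and Ltb were in the top 10%, and Il6 read 7.22, 8.06, 7.65 and 8.45, Tnf 6.74, 7.06, 6.98 and 6.68 and Il10 6.09 ± 0.34. The subunits of interleukin-12 and interleukin-23, Il12a (4.31 ± 0.14), Il12b (3.35 ± 0.081) and Il23a (2.92 ± 0.084), and Ifnb1 (2.96 ± 0.19) were not above background. Of 19 chemokine genes 15 were above it, at a median percentile of 57.6. Ccl6 (12.39 ± 0.27) and Ccl5 were in the top 1% and Cxcl2 (10.01 ± 0.67) and Ccl9 (9.89 ± 0.80) in the top 10%. Cxcl9, induced by interferon gamma, read 7.58, 9.22, 7.66 and 8.67, higher on replicates 2 and 4.

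Receptors for uptake had a median percentile of 88.3, with 19 of 21 above background. The Fc receptor Fcgr3 (12.19 ± 0.13), its signalling chain Fcer1g (11.77 ± 0.17), the integrin chain Itgb2 (11.50 ± 0.11), which pairs with CD11c, and Fcgr4 (11.14 ± 0.28) were in the top 10%. Among pattern recognition genes 19 of 23 were above background. Cd14, the co-receptor for endotoxin, read 11.52, 10.58, 12.15 and 10.92, and the adaptors Pycard (10.84 ± 0.13) and Myd88 (9.21 ± 0.056) were in the top 10%. Tlr2 (8.29 ± 0.23), Tlr7 (7.75 ± 0.58) and Tlr4 (7.17 ± 0.49) were above background, and Tlr9 (3.57 ± 0.070) and Tlr5 (3.60 ± 0.11) were not.

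Genes induced by interferon gamma lay high, at a median percentile of 90.5, with 10 of 18 in the top 10%. The GTPases Gbp7 (10.73 ± 0.10), Gbp2 (9.75 ± 0.22), Igtp (9.86 ± 0.19) and Iigp1 (9.97 ± 0.23) and the factor Irf1 (9.90, 10.03, 9.69 and 9.89) were among these 10. Ido1 (2.90 ± 0.12) and Nos2 (3.64 ± 0.27), enzymes that consume tryptophan and arginine, were not above background. Genes of the type I interferon response had a median percentile of 74.0, with 20 of 21 above background. They were led by Ifi27l2a (10.12 ± 0.19), Rtp4 (9.26 ± 0.076) and Oas1a (9.16 ± 0.11).

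Metabolic lists differed in their place. Oxidative phosphorylation genes lay at a median percentile of 96.2, with 58 of 58 above background and 53 in the top 10%. By complex, the median percentile was 97.4 for ATP synthase, 93.6 for complex I, 92.6 for complex II, 94.5 for complex III and 98.4 for complex IV. Cox6a1 (12.71 ± 0.086) and Cox5b (12.29 ± 0.090), subunits of complex IV, were in the top 1%, followed by Atp5g3 (12.03 ± 0.084) of ATP synthase. Cox7c (6.78 ± 0.070), also of complex IV, had the lowest signal of the list. The tricarboxylic acid cycle list lay at 90.7, led by malate dehydrogenase Mdh2 (11.28 ± 0.029) citrate synthase Cs (10.62 ± 0.13) and the isocitrate dehydrogenase subunit Idh3g (10.57 ± 0.025), with pyruvate carboxylase Pcx (4.52 ± 0.068) not above background.

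Pentose phosphate genes lay at 93.1, with Tkt (11.95 ± 0.087), Taldo1 (11.62 ± 0.043) and Pgd (10.37 ± 0.089) highest, and glycolysis at 86.7. Aldoa (10.77 ± 0.055), Ldha (10.76 ± 0.066), Pgk1 (10.49 ± 0.050) and the glucose transporter Slc2a3 (10.29 ± 0.26) led glycolysis, and Hk2 read 7.37 ± 0.25. The lactate exporter Slc16a3 (3.68 ± 0.048) was not above background, while its relative Slc16a1 (9.31 ± 0.20) was in the top 10%. Fatty acid oxidation (88.7) had all 16 genes above background, among them Acadl (10.34 ± 0.086), Hadhb (9.94 ± 0.10), Etfb (9.87 ± 0.20) and Cpt1a (8.95 ± 0.35), the gate to the mitochondrion.

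Lipid synthesis lay lower in the order. Fatty acid synthesis had a median percentile of 67.1, with Acly (9.42 ± 0.023), Elovl5 (9.92 ± 0.091) and Elovl1 (9.29 ± 0.053) high and Acaca (2.94 ± 0.27), which makes malonyl-CoA, not above background. Cholesterol synthesis was at 62.4, with all 16 genes above background and none in the top 10%. Its leading genes were Ebp (8.47 ± 0.081), Hmgcs1 (8.34 ± 0.094) and Fdps (7.85 ± 0.14). In amino acid metabolism (72.2), glutamine synthetase Glul (10.95 ± 0.18), glutamate dehydrogenase Glud1 (9.70 ± 0.051) and ornithine decarboxylase Odc1 (9.54 ± 0.20) led, and Arg1 (3.37 ± 0.25) and the cystine transporter Slc7a11 (3.56 ± 0.13) were not above background.

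**Figure D2:**
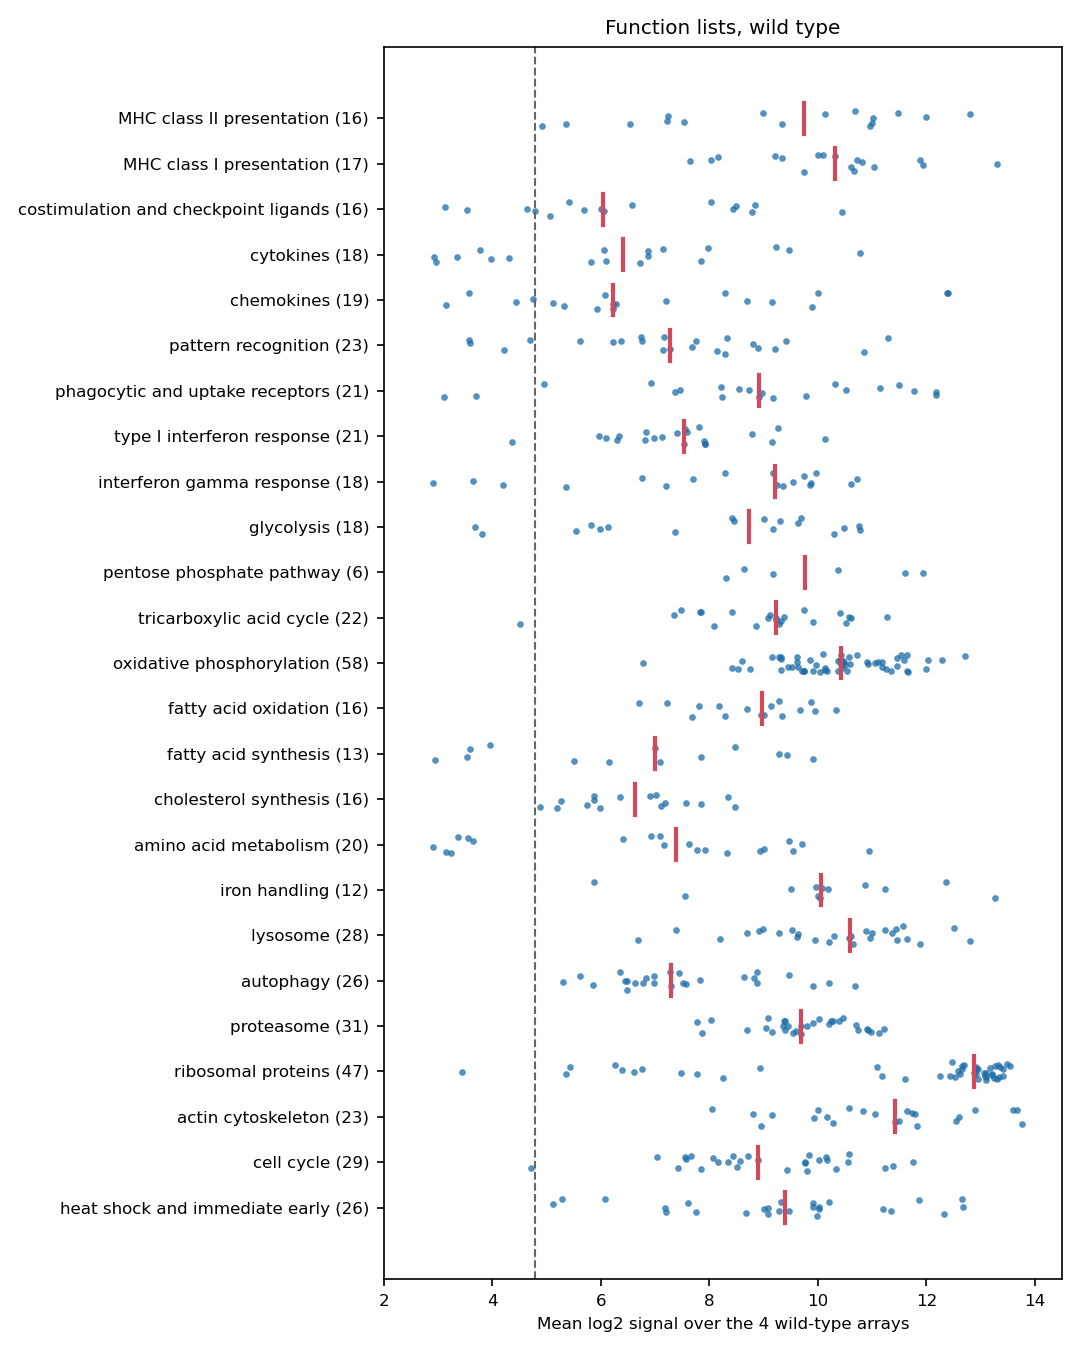
Mean log2 signal over the 4 wild-type arrays (horizontal axis) of each measured gene (points) in the function lists, with the number of measured genes in brackets, red bars at list medians and a dashed line at the background level of 4.79. Ribosomal protein genes (median percentile 99.5) and actin cytoskeleton genes (98.2) lay farthest to the right.

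Of 47 measured ribosomal protein genes 33 were in the top 1%, where 0.742% of all genes lay. The median SD of the 47 was 0.049 (0.031 without replicate 1). It was under the 0.120 of all probe sets and the 0.103 of the 10% of highest mean. The one member not above background, Rpl3l, is a muscle-specific paralog. Lysosomal genes had a median percentile of 96.7, with 28 of 28 above background, and were led by Ctss, Ctsb (12.52 ± 0.32) and Ctsc (11.89 ± 0.43). Iron handling genes (94.8) were led by Fth1, Slc40a1 and the iron chaperone Pcbp2 (11.23 ± 0.081). Proteasome subunits lay at 93.2 and autophagy genes at 70.8, both with all measured members above background. The core subunits Psma3 (11.22 ± 0.076), Psma6 (11.12 ± 0.083) and Psma2 (10.97 ± 0.075) led the proteasome. Map1lc3b, which encodes the LC3B protein of autophagosomes, read 10.68 ± 0.25, its relative Gabarap 10.20 ± 0.073, the conjugating enzyme Atg3 9.91 ± 0.11 and Atg16l1 7.30 ± 0.092.

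Proliferation and stress genes were also found high. Cell cycle genes lay at 88.0, with 28 of 29 above background. Pcna (11.63, 12.01, 11.54 and 11.84), the replication clamp, Mki67 (11.42, 11.50, 11.34 and 11.31) and Top2a (10.56 ± 0.038) were in the top 10%. Immediate early and heat shock genes (91.6) were all above background, with Fos (12.42, 12.74, 12.79 and 12.67), Hspa8 (12.68 ± 0.12) and Dusp1 (12.32 ± 0.19) in the top 1%.

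The SD between the 4 arrays was small for most genes. Its median over all probe sets was 0.120 log2 units, with quartiles at 0.074 and 0.182. With probe sets divided by their mean into 10 groups of equal size, it was 0.088 in the group of lowest mean, 0.103 in that of highest mean, and largest, at 0.155, in group 5 from the bottom. An SD over 0.5 was found for 407 probe sets (1.80%) and over 1 for 67 (0.296%). At the other end, 94 probe sets had the same value on all 4 arrays, and between 4.74% and 6.94% of probe sets were identical in a pair of arrays. Such ties come with the deposited values and make the smallest SD uninformative.

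By the rule for the smallest SD in the top 10%, the genes were Atp5md (0 in all digits), Sh3bgrl, Rac1, Capza1, Lrrc59, Cmpk1, Hspa8, Tram1, Rpl7a and Ppp2ca, with SD up to 0.013. They encode, among others, a subunit of ATP synthase, a GTPase and a capping protein of the actin cytoskeleton and a catalytic subunit of a phosphatase. Hspa8 enters here with another of its 4 probe sets than above, at a mean of 12.56. Leaving aside the list of Xist and Y-linked genes, of which 1 was above background, the lists with the lowest median SD were ribosomal proteins (0.049), actin cytoskeleton (0.073), tricarboxylic acid cycle (0.076), proteasome (0.081) and oxidative phosphorylation (0.085).

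**Figure D3:**
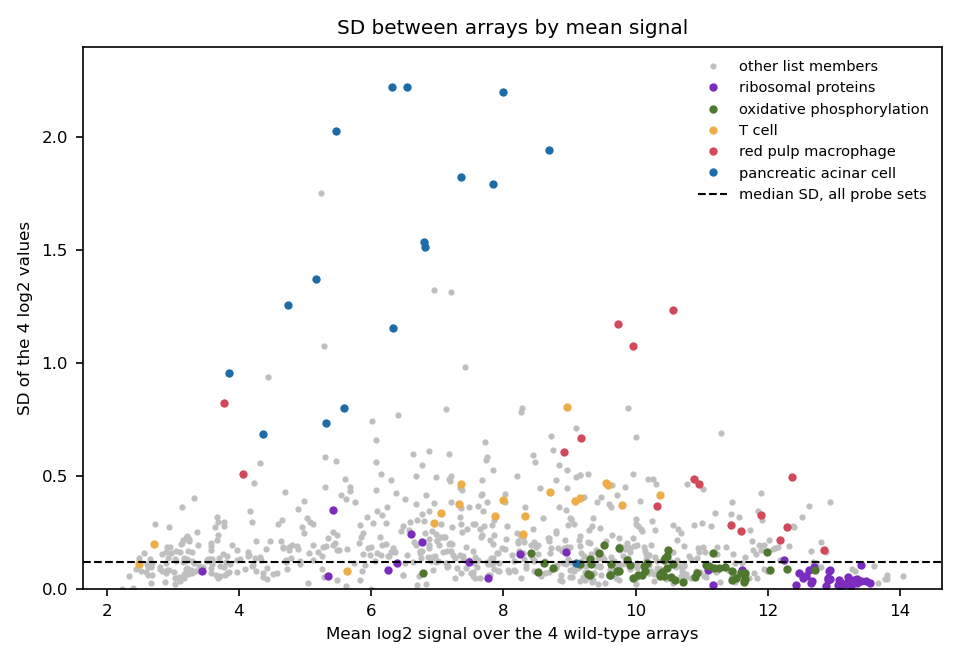
SD of the 4 log2 values (vertical axis) against their mean (horizontal axis) for each measured list gene, with 5 lists in colour. The dashed line is the median SD over all probe sets, 0.120. Pancreatic acinar genes reach an SD of 2.22, red pulp macrophage genes of 1.24 and T cell genes of 0.808.

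Among genes above background, the largest SD belonged to genes of the exocrine pancreas, the gland next to the spleen. The list of acinar genes was drawn up with this known, so its place is a description. A gene in this ranking stands with its probe set of largest SD. Of the 20 genes of largest SD, 11 were on that list, and in 16 of the 20 replicate 4 was the highest and replicate 1 the lowest. Cela3b, an elastase, read 5.29, 7.23, 9.21 and 10.27, and Ctrb1, chymotrypsinogen, 6.29, 7.98, 9.87 and 10.61. Prss2, a trypsinogen with close relatives that probe sets may not separate, read 5.74, 7.00, 8.95 and 9.66, and the lipase-related Pnliprp1 3.68, 5.32, 7.70 and 8.55. Zg16, Reg1, Cpb1, Cela2a, Cpa1, Rnase1 and Sycn were the other list genes among the 20, and 2210010C04Rik and Klk1 were also in the same order. For the 4 genes with values given, replicate 4 was more than 3 log2 units above replicate 1, and replicates 2 and 3 lay between.

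Genes of pancreatic regeneration and secretion outside the list had the same order of arrays. Reg3b read 4.06, 7.52, 8.69 and 9.56, Reg2 5.57, 7.73, 9.47 and 10.37 and Dmbt1 3.36, 5.04, 7.54 and 8.13. The median deviation of the acinar list was -1.69, -0.65, 0.64 and 1.66 on replicates 1 to 4. All 17 measured genes were lowest on replicate 1 and 16 were highest on replicate 4. Among all probe sets, 27.2% were lowest on replicate 1 and 19.9% highest on replicate 4. The exception was Cela1 (8.96, 9.08, 9.24 and 9.09), highest on replicate 3, whose SD of 0.11 was near that of all probe sets. Islet genes did not share the pattern: 0 of 8 were above background, with Sst at 4.42 ± 0.044, Ins2 at 3.82 ± 0.15, Pdx1 at 3.58 ± 0.19, Gcg at 2.50 ± 0.12 and a median SD of 0.140. Without replicate 1 the median SD of the acinar list was 1.27, and without replicate 4 it was 1.26, against 1.51 with all. The part of pancreatic RNA in the other differences between the arrays was not tested.

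The upstream windows of 2 of these genes are shown. They are examples of the 3 acinar list genes among the 20 of largest SD that hold an E box match, the other being Cpb1. Among the 20, only genes of that list were looked up. They are 200 bases before the start from RefSeq (GRCm38.p6), chr4:137430521-137430720 on the minus strand (Cela3b) and chr6:41521576-41521775 on the plus strand (Prss2). Capitals mark CACCTG, an E box of the kind bound by basic helix-loop-helix factors, searched on both strands.
Cela3b: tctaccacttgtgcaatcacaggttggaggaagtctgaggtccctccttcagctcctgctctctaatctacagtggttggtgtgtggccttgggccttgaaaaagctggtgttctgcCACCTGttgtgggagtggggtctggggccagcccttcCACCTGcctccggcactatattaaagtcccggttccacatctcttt
Prss2: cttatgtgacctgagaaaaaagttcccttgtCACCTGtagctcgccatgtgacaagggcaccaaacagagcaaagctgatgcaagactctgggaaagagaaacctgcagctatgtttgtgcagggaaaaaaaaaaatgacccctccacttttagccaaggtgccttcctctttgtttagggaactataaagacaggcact
The matches begin 83 and 46 bases before the start in Cela3b and 169 bases before it in Prss2. Of 18 acinar genes with a window 7 held a match, against 13.9% of all windows. No match in the other 11 says only that these letters are not in this window.

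Genes of the red pulp macrophage list, which also holds markers of other macrophages such as Siglec1, formed the next pattern. Cd5l, a secreted macrophage protein, read 9.34, 11.66, 9.66 and 11.60, Marco, a scavenger receptor, 8.76, 10.48, 8.72 and 10.99, and Hmox1, the haem-degrading enzyme, 8.91, 11.05, 9.16 and 10.71. Replicates 2 and 4 were more than 1 log2 unit above replicates 1 and 3 for all 3 genes. Outside the list, the growth factor Igf1 (6.46, 8.53, 6.59 and 8.82) and the oxysterol receptor Nr1h3 (5.25, 7.12, 5.55 and 7.48) were high on the same arrays. So was the lipid-binding Fabp4 (4.91, 6.90, 5.14 and 7.09), also outside it. On its probe set of highest mean, Igf1 read 7.14, 8.71, 7.43 and 8.81, and Fabp4 7.40, 8.15, 7.08 and 8.75, with replicates 2 and 4 high again. Of the 17 measured genes of the list, 16 were lowest on replicate 1, against 27.2% of all probe sets. The median deviations of the list were -0.54, 0.23, -0.12 and 0.48. Lysosomal genes shared the low value of replicate 1, in 27 of 28 cases, with deviations of -0.28, 0.13, -0.04 and 0.20. Without replicate 1 the median SD of the macrophage list was 0.307, against 0.488 with all 4 arrays.

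Among the 100 genes of largest SD, replicates 2 and 4 were the highest pair in 50, replicates 3 and 4 in 23 and replicates 1 and 3 in 19. Over all single-gene probe sets above background, these pairs were the highest in 25.5%, 17.4% and 22.9%. The 19 include Tgfb3, a growth factor (6.36, 3.12, 7.28 and 3.63), the leptin receptor Lepr (7.42, 5.48, 8.54 and 6.37), the vitamin D receptor Vdr (7.90, 6.30, 8.65 and 7.02), the transcription factor Crem (7.47, 6.02, 8.04 and 5.91), the transaminase Gpt2 (6.24, 4.96, 7.22 and 5.38) and Clec10a. For Lepr a second probe set read 7.50, 5.41, 8.12 and 6.17, in the same order, and the third was not above background. On its probe set of highest mean Vdr read 8.22, 6.79, 8.95 and 7.24, in the same order. Tgfb3 spanned the background level, with replicates 2 and 4 under it. The lineage these genes mark in this sample was not tested.

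**Figure D4:**
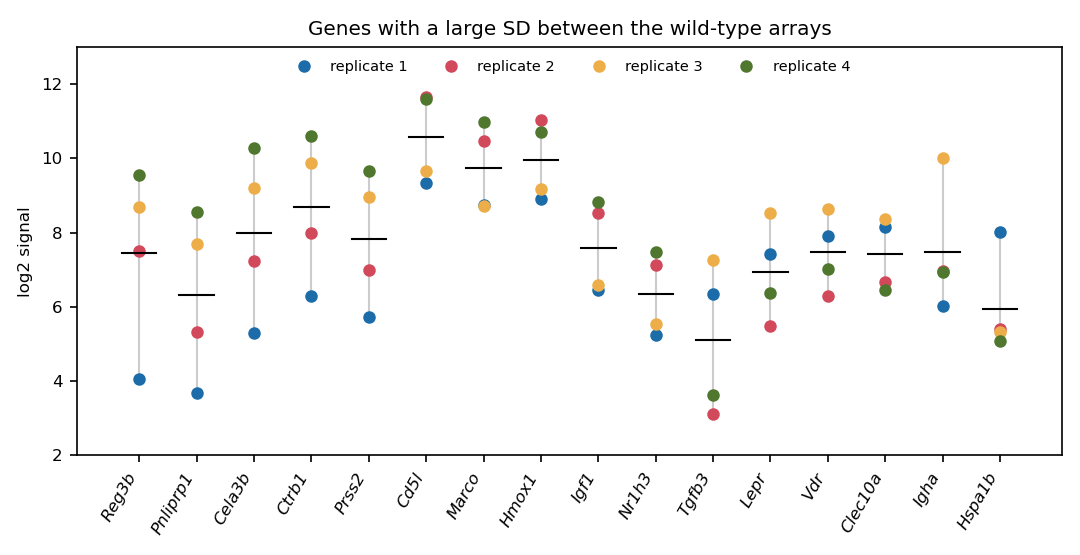
Log2 signal (vertical axis) of 16 genes on each wild-type array (coloured points), with black bars at the mean. From left to right, Reg3b to Prss2 are low on replicate 1 and high on replicate 4, Cd5l to Nr1h3 are high on replicates 2 and 4, and Tgfb3 to Clec10a on replicates 1 and 3, followed by Igha (high on replicate 3) and Hspa1b (high on replicate 1).

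Lymphocyte and erythroid genes set other arrays apart. T cell genes were highest on replicate 1 in 17 of 19 cases, with median deviations of 0.46, -0.35, 0.06 and -0.22. Il7r, the interleukin-7 receptor of naive and memory T cells, read 9.79, 8.15, 9.50 and 8.39. Cytotoxic genes were highest on replicate 1 in 12 of 14 cases (0.35, -0.29, 0.04 and -0.08), with a median SD of 0.267, or 0.171 without replicate 1. Erythroid genes were highest on replicate 2 in 21 of 23 cases and lowest on replicate 3 in 18 (0.05, 0.42, -0.30 and -0.17). Replicate 1 was the highest for 34.9% and replicate 2 for 26.0% of all probe sets, and replicate 3 the lowest for 22.7%. Without replicate 1 the median SD of T cell genes was 0.210 against 0.378, and without replicate 2 that of erythroid genes was 0.165 against 0.317.

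Dendritic cell lists spread less than macrophage genes but more than all probe sets. The CD8 lineage list had a median SD of 0.304 and deviations of -0.27, -0.01, 0.04 and 0.25. In it, 9 of 14 genes were lowest on replicate 1 and 7 highest on replicate 4, against 27.2% and 19.9% of all probe sets. The CD11b lineage list had a median SD of 0.235, with deviations between -0.10 and 0.05, and the pan dendritic list one of 0.209, or 0.138 without replicate 2. Neutrophil genes had list deviations from -0.08 to 0.09 and a median SD of 0.287, and class II genes a median SD of 0.159.

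**Figure D5:**
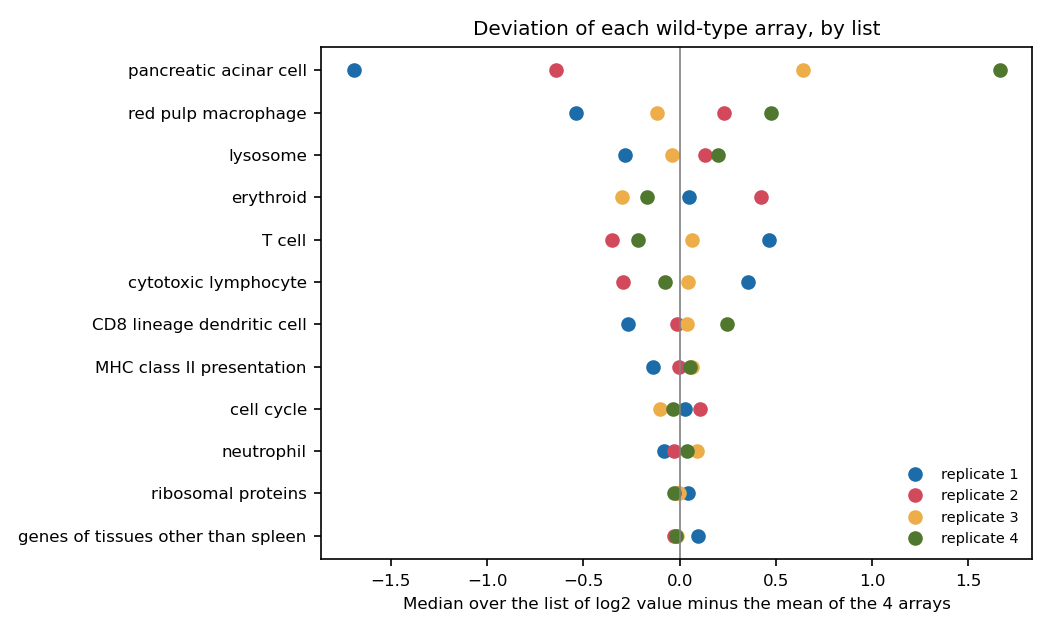
Median over each list of the log2 value minus the mean of the 4 arrays (horizontal axis), for each wild-type array (coloured points). The acinar list runs from -1.69 to 1.66, the red pulp macrophage list from -0.54 to 0.48, and the ribosomal protein list from -0.03 to 0.04.

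Single genes stood out on 1 array. Igha, the heavy chain of IgA, read 6.02, 6.98, 10.02 and 6.94, with replicate 3 more than 3 log2 units above the next array, and its other 2 probe sets were also highest on replicate 3. Hspa1b, an inducible heat shock protein, read 8.01, 5.41, 5.33 and 5.07, on its probe set of largest SD, with replicate 1 more than 2 log2 units above the others. Its other 2 probe sets were also highest on replicate 1. Its close copy Hspa1a read 6.85, 5.05, 4.85 and 4.41, and probe sets may not separate these copies.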

How the data were processed

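RNA of CD11c+ spleen cells was extracted with Trizol, and 100 ng was labelled and hybridised to Affymetrix Mouse430A arrays with 1 colour, per the labels' protocols. For each array the authors deposited a column of log2 signals, 1 for each probe set. Affymetrix Power Tools is named in the submitters' processing notes. How it summarised probes, corrected background and normalised was not given in the sources used here. Array medians were 5.46 to 5.53. The deposited log2 values were used as they are, without further normalization, so a difference in the amount of RNA per cell is not visible in them.

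Of 22690 probe sets, 64 controls and 1 without a value were left out. Of the rest, 20379 named 1 gene, 691 named several and 1555 none in the platform annotation, and 20350 of the single-gene probe sets matched RefSeq by gene number. Symbols can be old. Mean, SD, percentile and list medians were computed with pandas 2.3.3 and numpy 2.4.6 in Python 3.11.15 and checked on simulated data, and figures were drawn with matplotlib 3.10.9. No test across genes was made, as there is 1 group. The members and the 47 lists (987 genes, 842 measured) were chosen with earlier results of these data known. The named genes are the 25 of highest mean, in each list the 3 to 8 of highest mean, the defining markers and up to 3 of lowest mean, the 20 of largest SD among those above background and the 10 of smallest SD in the top 10%. A further 31 genes were chosen after their values were seen, namely Arg1, Atg16l1, Cd163, Cpt1a, Crem, Ctsg, Elane, Esam, Fabp4, Fasl, Gpt2, H2-DMa, H2-Ea, H2-Oa, Hk2, Hmox1, Ifng, Igf1, Il10, Il12a, Marco, Mpo, Nr1h3, Psmb10, Slc7a11, Tap1, Tapbp, Tlr3, Tlr4, Tlr7 and Vdr. Alternatives left out each array, centred the arrays, averaged all probe sets of a gene, used other averages or ranks, or added 32 to the linear value before taking the log2.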

Additional observations from a re-analysis of the deposited data

Results flagged for a closer look

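In a group of 4 arrays, a value was looked at again when 1 array lay so far from the nearest other that the gap, as a share of the whole range, passed Dixon's critical value at the 95% level. Chance flags about 1 in 20 such groups, or 5%, and 18 of 285 named genes (6.32%) and 3 of 47 list deviations (6.38%) were found. That share does not allow for tied values. In Itga2b, Cd79b and Hba-a1 the other arrays held identical deposited values, where a difference of any size is flagged.

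Replicate 1 stood alone in 7 genes. Hspa1b read 9.17 there against 6.42 to 6.74 on the other arrays, on its probe set of highest mean. Tapbp read 10.46 against 10.26 to 10.30, and Fth1 13.14 against 13.31 to 13.32. Itga2b read 6.47 against 6.19, and Elovl1 9.37 against 9.26 to 9.27. The interferon gene Ifnb1 (3.24 against 2.83 to 2.89) and Ido1 (3.08 against 2.83 to 2.85) were under the background level on all 4 arrays.

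Replicate 2 was low for Itgax, the gene of the sorting marker, at 7.98 (7.98 to 8.33 over the 4 arrays), and for Tpt1 at 13.66 against 13.72 to 13.73. It was high for Il12b (3.47 against 3.30 to 3.32) and Acaca (3.35 against 2.79 to 2.83), both under the background level. Replicate 3 was high for S100a9, at 14.13 against 14.01 to 14.02, and low for Il4i1 (2.83 against 3.24 to 3.29) and Cma1 (3.08 against 3.26 to 3.27), both also under the background level. Replicate 4 was low for Fscn1, at 5.38 against 5.69 to 5.76, for Hadhb, at 9.78 against 9.98 to 10.01, and for Hba-a1, at 3.12 against 3.26, and high for Cd79b, at 7.46 against 7.32. Of the 18 genes, 7 lay under the background level, where the size of a difference has no clear meaning.

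For whole lists, replicate 1 was high for the genes of tissues other than spleen, with a median deviation of 0.096 against -0.029 to -0.014, and for amino acid metabolism, with 0.112 against -0.053 to -0.032. Replicate 2 was low for fatty acid oxidation, with -0.11 against 0.014 to 0.037.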

How the results depend on the processing

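No paired analysis was possible because 1 group was described and no test was made. Averaging all probe sets of a gene gave median percentiles of 72.5 for pan dendritic (main value 74.6), 69.9 for CD8 lineage (73.5), 60.7 for CD11b lineage (64.3), 89.7 for class II (93.3) and 94.0 for oxidative phosphorylation genes (96.2), a background level of 4.45, and median SDs of 0.367 for red pulp macrophage and 0.060 for ribosomal genes. Ranking among genes gave 70.1 for pan dendritic, 68.6 for CD8 lineage, 58.4 for CD11b lineage, 42.0 for plasmacytoid and 33.5 for B cell genes. The log2 of the mean linear value gave 53.2 for plasmacytoid genes (47.5), and the median over arrays 38.1 for B cell genes (37.7). Adding 32 to the linear value gave median SDs of 0.357 for red pulp macrophage genes (0.488), 1.14 for acinar genes (1.51) and 0.059 for all probe sets (0.120). Centring the arrays gave 0.073 for ribosomal genes (0.049) and 0.127 for all probe sets, keeping only those above background gave 0.126, and the half-range in place of the SD 0.133.

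Leaving out 1 array at a time gave median percentiles of 74.1 to 74.8 (pan dendritic), 72.6 to 74.0 (CD8 lineage), 63.8 to 64.6 (CD11b lineage), 44.8 to 53.4 (plasmacytoid, the highest without replicate 1), 96.9 to 97.7 (red pulp macrophage), 95.3 to 95.8 (neutrophil), 87.2 to 88.7 (cytotoxic), 37.3 to 38.4 (B cell), 92.8 to 93.6 (class II) and 96.1 to 96.3 (oxidative phosphorylation). The median SD then ran over 0.307 to 0.543 (red pulp macrophage), 0.210 to 0.462 (T cell), 0.165 to 0.378 (erythroid), 1.26 to 1.74 (acinar), 0.031 to 0.055 (ribosomal) and 0.103 to 0.117 (all probe sets). The background level ran over 4.75 to 4.82. Of the percentiles of the other lists, 131 of 185 under other settings and 144 of 148 without 1 array stayed within the spread between arrays, and of their median SDs 145 of 209 and 101 of 168. Averaging probe sets lowered the percentile of 38 lists and raised none, by up to 17.1 points. With 4 arrays, and signals near the background level, small differences are not resolved.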
